A study of Mus musculus with 6 samples.

Results

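The miR-181 family of mouse was followed in small RNA libraries from a progenitor line with inducible PU.1. Its members were chosen by name as every arm of the hairpins miR-181a, miR-181b, miR-181c and miR-181d. This gave 10 of the 1915 mature microRNA names in the count table, 9 of them listed for this purpose and the 10th being the rare miR-181d-3p. The induced group was 3 libraries of iBN cells that received 1000 ng/ml doxycycline for 72 hours. The uninduced group was 3 libraries of the same cells that received none. Cells of both groups carried the inducible system for PU.1, a transcription factor of myeloid cells whose gene is Spi1, and both grew in suspension in medium with GM-CSF. The labels call them granulocyte-macrophage progenitors and number the libraries of each group as trials 1, 2 and 3, without saying that these were separate cultures. The p-values therefore reflect only how these libraries vary, and that variation may be technical. For the inducible gene, promoter and site of integration were not given in the sources used here, and doxycycline without that gene was not analysed here.

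MicroRNAs are cut from hairpins in longer transcripts, first by Drosha and then by Dicer, and an arm loaded into an Argonaute protein pairs with target mRNAs mainly through its seed, bases 2 to 8. The miR-181 family is known in mouse blood formation for favouring the B lineage when expressed in marrow progenitors and for setting the sensitivity of the T cell receptor in thymocytes. miR-181b is also known as a brake on NF-kB signalling in endothelium, through the nuclear import factor importin-α3.

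The 4 arms from the 5′ side share 1 seed, shown in capitals, so their reads add up to a common dose of that seed. They are given 5′ to 3′ as RefSeq annotates them in GRCm38.p6, the assembly also called mm10.
mmu-miR-181a-5p: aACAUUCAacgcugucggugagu
mmu-miR-181b-5p: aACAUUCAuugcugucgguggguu
mmu-miR-181c-5p: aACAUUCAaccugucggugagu
mmu-miR-181d-5p: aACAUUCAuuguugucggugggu
Of all mouse mature microRNAs in the RefSeq table, 4 carry this seed and 0 of them lie outside the family. Its target site in an mRNA reads UGAAUGU. Counted from 1 at the 5′ end, miR-181c-5p differs from miR-181a-5p by 1 edit, G11del. miR-181d-5p differs from miR-181b-5p by C12U and by ending 1 base earlier.

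The 3p arms tell the loci apart, because miR-181a-5p and miR-181b-5p are each made from 2 hairpins on different chromosomes. Seeds are again in capitals.
mmu-miR-181a-1-3p: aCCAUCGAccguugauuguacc
mmu-miR-181a-2-3p: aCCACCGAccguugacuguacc
mmu-miR-181c-3p: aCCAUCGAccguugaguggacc
mmu-miR-181b-1-3p: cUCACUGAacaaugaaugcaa
mmu-miR-181b-2-3p: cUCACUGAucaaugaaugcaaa
mmu-miR-181d-3p: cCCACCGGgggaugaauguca
miR-181a-2-3p differs from miR-181a-1-3p by U5C, inside the seed, and U16C. miR-181c-3p differs from miR-181a-1-3p by U16G and U19G, and keeps its seed. The miR-181b 3p arms share a seed and differ by A9U and 1 added base.

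The first locus holds miR-181a-1 (chr1:137966455-137966541, plus strand) and miR-181b-1 (chr1:137966639-137966718), 97 bases apart. Both overlap an exon of the long non-coding RNA gene A430106G13Rik and lie in an intron of Gm4258, both on their own strand, in GENCODE M21. The second locus holds miR-181a-2 (chr2:38852735-38852810, plus strand) and miR-181b-2 (chr2:38853830-38853918), 1019 bases apart, within introns of Nr6a1 but on the opposite strand. The third holds miR-181d (chr8:84178716-84178787, minus strand) and miR-181c (chr8:84178873-84178961), 85 bases apart, in an intron of Nanos3 on the same strand. The hairpins of the miR-181a copies are shown with their mature arms in capitals, since the mature 5p arm is identical in both and the 3p arms differ.
Mir181a-1: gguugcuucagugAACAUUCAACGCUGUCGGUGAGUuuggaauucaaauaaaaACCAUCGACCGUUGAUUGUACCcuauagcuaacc
Mir181a-2: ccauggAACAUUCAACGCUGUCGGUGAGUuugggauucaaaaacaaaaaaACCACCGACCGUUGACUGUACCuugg

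With 1 entry kept per name, the induced libraries held 9089319 to 13946613 reads and the uninduced libraries 8697384 to 11714847. A count of 0 allowed up to 0.215 to 0.345 CPM (counts per 1e6 reads), a limit that covers counting error only. The markers listed as myeloid, miR-223-3p, miR-142a-3p and miR-142a-5p, summed to 73489 to 91168 TMM-scaled CPM in induced libraries. In uninduced libraries they summed to 71001 to 89996 CPM. Most of this was miR-142a-5p, a microRNA of blood cells, so the sum was not read as specific to myeloid cells. miR-223-3p had a mean of 5564 ± 2407 CPM in induced and 6513 ± 2093 CPM in uninduced libraries (SD, n = 3 each). Trial 3 was its lowest library in both groups, at 2798.5 CPM in induced and 4321 CPM in uninduced cells. Of the 13 markers of other cell types, miR-144-3p, miR-214-3p and miR-124-3p had 0 reads. The erythroid sum was at most 0.367 CPM in any library. The markers listed as lymphoid, miR-155-5p the larger, summed to 653 to 785 CPM in induced and 759 to 898 CPM in uninduced libraries. Of these 2, 0 were called. The neural sum, all of it miR-9-5p, was 0.914 to 1.46 CPM in induced and 0.222 to 0.458 CPM in uninduced libraries. The summed stromal markers, miR-143-3p the largest, lay at 145 to 215 CPM in induced and 229 to 270 CPM in uninduced libraries. The epithelial markers summed to 69.5 to 87.6 CPM in induced and 25.6 to 32.7 CPM in uninduced libraries. In the tests described below, 2 of 2 tested epithelial markers, miR-200c-3p and miR-141-3p, were called higher, without and with the trial block. These 2 were not taken as separate measurements. The remaining epithelial marker, miR-205-5p, had at most 0.415 CPM in any library and was not tested. Of 3 tested stromal markers, 1 was called lower without the block and 3 with it. Over all tested microRNAs, 3.43% were called higher and 2.67% lower without the block, and 10.7% and 11.0% with it. The part of these markers in the miR-181 values was not tested. In RNA from whole cultures, fewer cells of a type and less RNA per cell cannot be told apart.

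The 5p arms of the paired miR-181a and miR-181b hairpins dominated the family. miR-181a-5p was the 10th most abundant microRNA in each of the 6 libraries. It had 23406, 30792 and 23847 CPM in induced cells of trials 1, 2 and 3, against 30542, 32782 and 32140 CPM in uninduced cells. The induced library of trial 2 lay inside the uninduced range, and the other 2 lay below it. miR-181b-5p had 5481, 6112 and 6067 CPM in induced and 6369, 6035 and 7048 CPM in uninduced cells, so its groups overlapped. miR-181c-5p and miR-181d-5p were lower by orders of magnitude. miR-181c-5p had 32.3, 47.5 and 50.7 CPM in induced and 54.1, 70.3 and 49.6 CPM in uninduced cells. miR-181d-5p had 25.2, 33.4 and 35.5 CPM in induced and 34.4, 37.9 and 34.4 CPM in uninduced cells. For both, trial 1 was the lowest induced library and the groups overlapped.

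**Figure D1:**
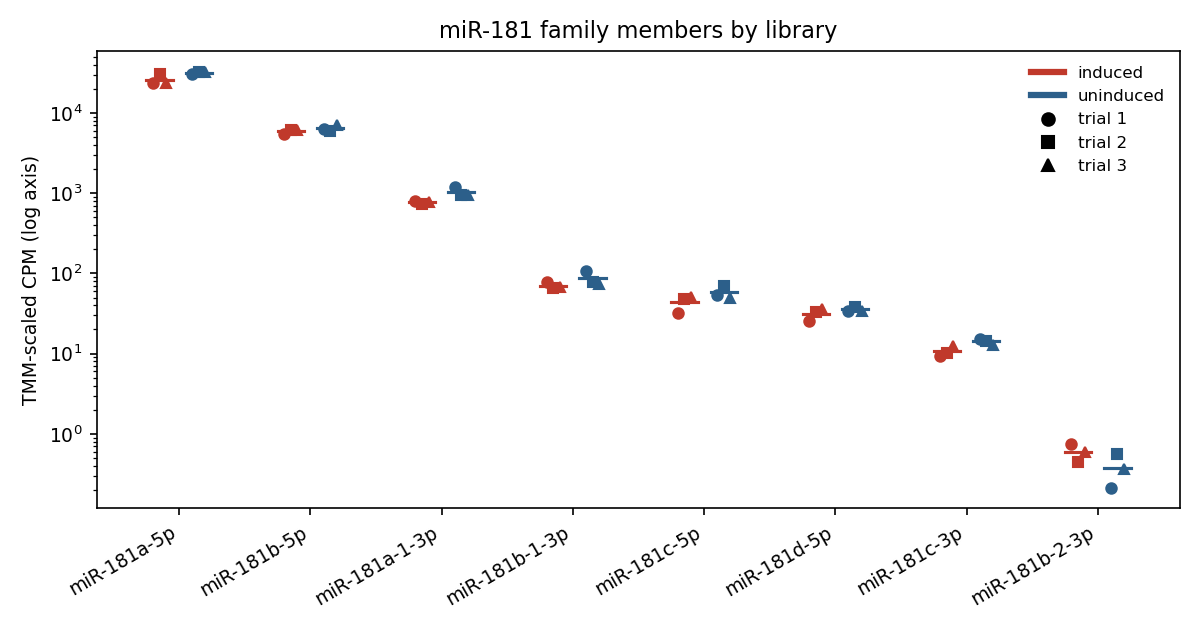
TMM-scaled CPM on a log axis for the 8 members with more than 4 reads, by library; red is induced, blue uninduced, the symbol gives the trial and the short line the group mean. The family spans from miR-181a-5p, at 23406 CPM or more in each library, to miR-181b-2-3p, below 1 CPM.

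miR-181a-5p made up 81.2% ± 1.91 of the family's 5p reads in induced and 82.9% ± 1.22 in uninduced libraries (SD, n = 3 each). miR-181b-5p made up 18.6% ± 1.87 in induced and 16.9% ± 1.26 in uninduced libraries (SD, n = 3 each). miR-181c-5p and miR-181d-5p together contributed under 1% of the shared seed in each library. Their counts were small beside those of near-identical relatives. The reads of miR-181d-5p equalled 0.459% to 0.628% of those of miR-181b-5p in the same library, and those of miR-181c-5p 0.138% to 0.214% of those of miR-181a-5p. The treatment of mismatches in the authors' alignment was not given in the sources used here, and the share of misread relatives in these counts was not tested.

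The pooled 5p dose, the sum of the 4 arms, stood at 28945, 36985 and 30000.3 CPM in induced cells of trials 1, 2 and 3, against 36999, 38925 and 39272 CPM in uninduced cells. The groups did not overlap, but induced trial 2 and uninduced trial 1 were almost level. The mean was 31977 ± 4369 CPM in induced and 38399 ± 1224.5 CPM in uninduced cells (SD, n = 3 each), a ratio of 0.833. As a share of all microRNA reads it was 3.21% ± 0.37 in induced and 3.82% ± 0.19 in uninduced libraries (SD, n = 3 each). Within trials, the induced dose differed from the uninduced one by -0.35, -0.07 and -0.39 on the log2 scale. The difference in trial 2 was thus small beside the other 2. A sum over chosen members was not tested.

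Among the 3p arms, those of the chromosome 1 locus made up nearly all reads. They took 98.7% ± 0.18 of the family's 3p reads in induced and 98.7% ± 0.12 in uninduced libraries (SD, n = 3 each). miR-181a-1-3p had 790, 743 and 778 CPM in induced cells, against 1196, 961 and 962 CPM in uninduced cells. The groups did not overlap, and uninduced trial 1 stood above the other libraries. miR-181b-1-3p, from the neighbouring hairpin, had 78.2, 65.9 and 67.6 CPM in induced and 107, 78.7 and 73.9 CPM in uninduced cells. Its groups overlapped, again with uninduced trial 1 highest.

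The chromosome 8 locus gave 1.26% ± 0.18 of the 3p reads in induced and 1.26% ± 0.10 in uninduced libraries (SD, n = 3 each), nearly all as miR-181c-3p. That arm had 9.47, 10.3 and 12.4 CPM in induced cells, against 15.3, 14.3 and 12.9 CPM in uninduced cells. The groups did not overlap, although trial 3 of each group was close to the other. miR-181d-3p had 0 reads in the induced libraries and 4 in the uninduced ones, too few for a comparison.

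The chromosome 2 locus was barely represented among the 3p reads. miR-181a-2-3p had 0 reads in all induced libraries and 2 in the uninduced ones, both in trial 3, against 26732 and 30346 reads of miR-181a-1-3p. In induced trial 1, 0 of 9515 reads of the miR-181a 3p arms came from this copy, which allows a share of up to 0.0315%. miR-181b-2-3p had 9, 4 and 8 reads in induced and 2, 5 and 4 reads in uninduced libraries. Per total reads the induced to uninduced ratio was 1.64, with an exact 95% interval of 0.756 to 3.77 for counting error, so no difference was detectable at this depth. Its share of the miR-181b 3p reads lay between 0.200% (Wilson 95% interval 0.0548% to 0.725%) and 0.947% (0.499% to 1.79%). These 3 arms, miR-181a-2-3p, miR-181b-2-3p and miR-181d-3p, were too rare for the filter and were not tested.

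**Figure D2:**
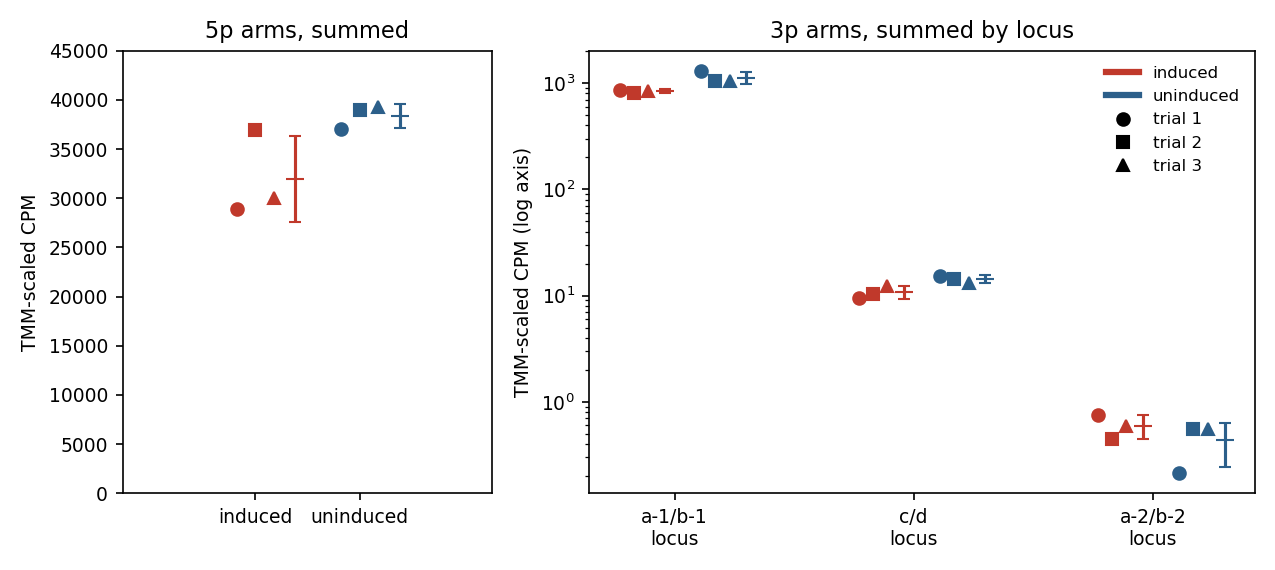
Summed TMM-scaled CPM per library, with the mean and SD of 3 libraries beside the points; left, the 4 5p arms with the shared seed on a linear axis from 0, right, the 3p arms of each locus on a log axis. The 5p sum lies at 28945 to 36985 CPM in induced and 36999 to 39272 CPM in uninduced libraries, and the chromosome 1 locus is the highest on the right.

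A share of 3p reads stands for a share of hairpins only if the hairpins keep their 3p arm to the same degree, which was not tested for the chromosome 2 copies. Only the hairpins on chromosome 8 have a 5p name of their own. Reads of miR-181c-3p equalled 25.2% ± 3.85 of miR-181c-5p in induced and 24.9% ± 4.02 in uninduced libraries (SD, n = 3 each). For its neighbour, miR-181d-3p had 0 reads beside 1085 of miR-181d-5p in induced libraries, which allows up to 0.276%. In uninduced libraries it had 4 reads beside 1039, or 0.385% (Wilson 95% interval 0.150% to 0.986%). The 5p arms of miR-181a and miR-181b pool both loci, so the values that follow are not the retention of 1 hairpin. Reads of miR-181a-1-3p equalled 3.02% ± 0.53 of miR-181a-5p in induced and 3.28% ± 0.55 in uninduced libraries. For miR-181b-1-3p and miR-181b-5p the value was 1.21% ± 0.19 in induced and 1.34% ± 0.32 in uninduced libraries. Across the family, the order of levels was miR-181a-5p, miR-181b-5p, miR-181a-1-3p, miR-181b-1-3p, miR-181c-5p, miR-181d-5p, miR-181c-3p and miR-181b-2-3p in each of the 6 libraries. Over all libraries the CPM ranges of miR-181b-1-3p and miR-181c-5p overlapped, as did those of miR-181c-5p and miR-181d-5p. These arms are 21 to 24 bases long and each read is a whole molecule, but CPM was not corrected for differences in ligation between sequences.

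The question put to the libraries was whether members changed with induction of PU.1. Of the 10 members, 7 passed the filter on low counts, each through both groups, with 788 reads or more. edgeR's quasi-likelihood test with group alone and Benjamini-Hochberg adjustment at 0.05 called 0 of these 7, where it called 6.10% of all 525 microRNAs tested, 3.43% higher and 2.67% lower. At an unadjusted p under 0.05 there were 2 members, against 20.8% of all tested. The other tools run, DESeq2 and limma-voom, also called 0. All 7 log2 fold changes were below 0, from -0.43 to -0.14 with a median of -0.29, while 47.8% of all tested microRNAs were below 0 and their median was 0.02. Members cut from 1 hairpin or 1 transcript are not separate measurements of a direction.

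With the trial as a block, which the libraries' shared deviations by trial allow, 2 of the 7 members fell and 0 rose. In that fit 21.7% of all tested microRNAs were called, 11.0% lower and 10.7% higher. Both members that fell come at least in part from the chromosome 1 locus. miR-181a-1-3p, the passenger arm that only this locus makes, had a log2 fold change of -0.43 (SE 0.13, n = 3 per group), with an edgeR adjusted p of 0.084 without and 0.0044 with the block. Its level was 0.741 of the uninduced one, at 770 ± 24.5 CPM in induced and 1039 ± 135 CPM in uninduced cells (SD, n = 3 each). It was lower in each of the 3 trials, with log2 differences of -0.60, -0.37 and -0.31. For miR-181a-5p the log2 fold change was -0.29 (SE 0.12), with an edgeR adjusted p of 0.211 without and 0.025 with the block. Its trial differences were -0.38, -0.09 and -0.43.

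Both blocked calls were lost when trial 1 or trial 3 was left out, while the fold changes stayed below 0. Without trial 1, miR-181a-1-3p had a log2 fold change of -0.34 (edgeR adjusted p = 0.111) and miR-181a-5p -0.26 (0.202). Without trial 3, miR-181a-1-3p had -0.50 (0.0979), farther from 0 than with all trials, and miR-181a-5p -0.25 (0.249). Without trial 2 both calls held, at -0.46 (0.021) for miR-181a-1-3p and -0.41 (0.0065) for miR-181a-5p. In the fit without the block, miR-181a-5p had -0.44 when induced trial 2 was left out. Over the whole table, fits with 1 trial left out also made fewer calls.

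The other 5 tested members passed neither fit. miR-181c-5p had a log2 fold change of -0.41 (95% interval -0.87 to 0.04), with differences of -0.75 and -0.56 in trials 1 and 2 and 0.03 in trial 3. miR-181c-3p, its partner arm, had -0.40 (-0.80 to 0.00), with -0.69, -0.48 and -0.06 by trial. Both arms of this hairpin thus differed most in trial 1 and least in trial 3. miR-181b-1-3p had -0.29 (-0.68 to 0.09). miR-181d-5p had -0.18 (-0.56 to 0.19) and miR-181b-5p -0.14 (-0.38 to 0.10). These intervals are without the block, and all 5 include 0. With the block those of miR-181c-5p (-0.73 to -0.10), miR-181c-3p (-0.70 to -0.08) and miR-181b-1-3p (-0.49 to -0.07) lay below 0. Their edgeR adjusted p in that fit, at 0.060, 0.069 and 0.055, missed the threshold. Such intervals are not adjusted for the number of microRNAs tested, and their share over all tested was not counted. They were therefore not read as a response of these arms. Single libraries moved 4 of these estimates in the fit without the block by more than 1.5 times. miR-181c-5p had -0.23 without induced trial 1 and -0.24 without uninduced trial 2. miR-181d-5p had -0.04 without induced trial 1 and -0.32 without induced trial 3. miR-181b-1-3p had -0.13 without uninduced trial 1. miR-181b-5p had -0.08 without induced trial 1 and likewise without uninduced trial 3.

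**Figure D3:**
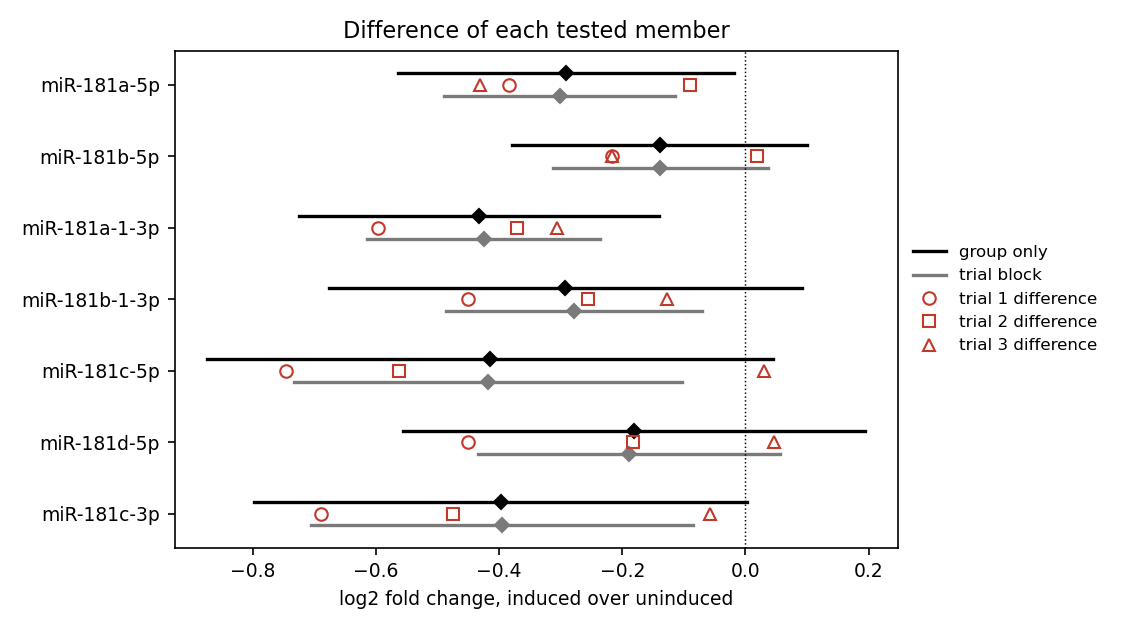
Log2 fold change of induced over uninduced cells for the 7 tested members; diamonds and bars are edgeR estimates with 95% intervals without (black) and with (grey) the trial block, and open red symbols are the differences within each trial. All 7 estimates lie below 0, from -0.43 to -0.14, and the blocked intervals of miR-181b-5p and miR-181d-5p cross 0.

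Of the 7 tested members, 2 had groups that did not overlap, miR-181a-1-3p and miR-181c-3p, both lower in induced cells. Over all tested microRNAs this held for 11.6%. In CPM, 4 of the 7 were lower in each of the 3 trials, namely miR-181a-5p, miR-181a-1-3p, miR-181b-1-3p and miR-181c-3p, against 29.5% of all tested. In trial 2, miR-181b-5p was level between groups (0.02), and in trial 3 both 5p arms of the chromosome 8 locus were (0.03 and 0.05).

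**Figure D4:**
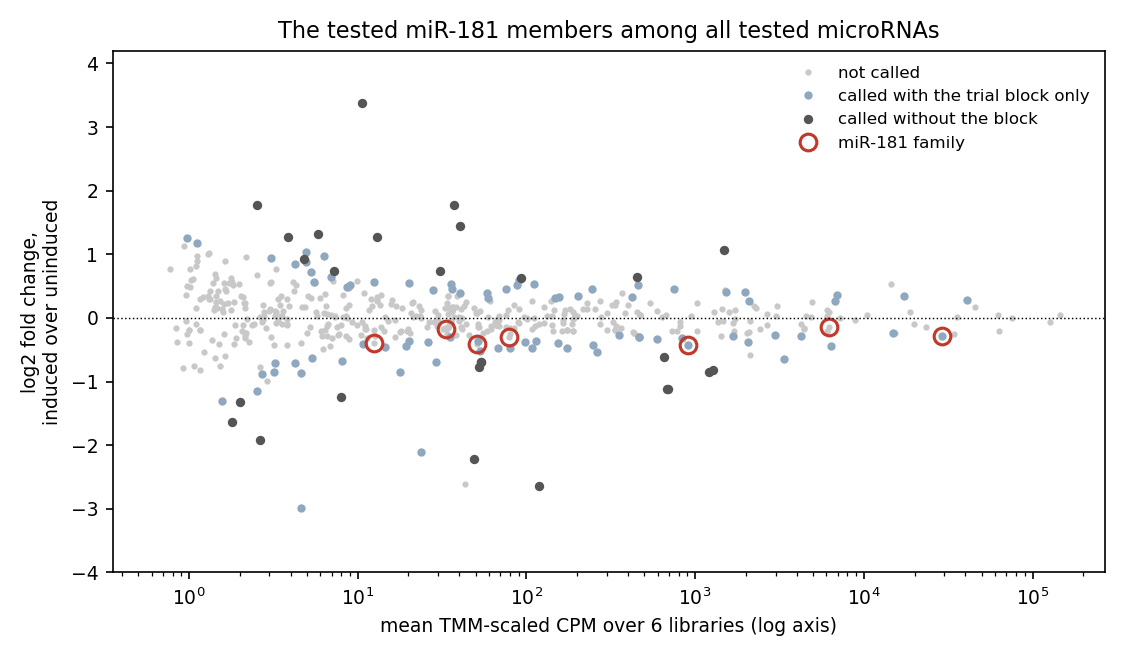
Log2 fold change of induced over uninduced cells against mean TMM-scaled CPM (log axis) for the tested microRNAs, with the 7 miR-181 members ringed in red and calls marked by shade; 5 microRNAs beyond the range are not drawn. The members sit between -0.43 and -0.14 over the abundance range from 12.5 to 28918 CPM.

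Whether the loci differed in response was tested by ratios of members within a library, which need no scaling between libraries. Over 9 such ratios, each tested by an exact two-sided permutation test of 3 against 3 libraries, the smallest possible p is 0.10 and every adjusted p was 0.90. No difference between loci could therefore pass this test. An exact paired test over the 3 trials, added after the data were seen, cannot go below 0.25 and could not pass either. The log2 ratio of miR-181a-1-3p to miR-181c-3p was 6.17 ± 0.21 in induced and 6.19 ± 0.12 in uninduced libraries (SD, n = 3 each), a difference of -0.02 (exact p = 0.90). Trial by trial, the difference was 0.09, 0.10 and -0.25. The summed 3p arms had a similar ratio of induced to uninduced CPM at both loci, 0.747 on chromosome 1 and 0.750 on chromosome 8.

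The ratios of 5p arms gave small differences. The log2 ratio of miR-181a-5p to miR-181b-5p was 2.13 ± 0.18 in induced and 2.30 ± 0.13 in uninduced libraries (SD, n = 3 each; exact p = 0.30). It was lower in each trial, with differences of -0.17, -0.11 and -0.22 (exact paired p = 0.25, the smallest possible), but the mean difference of -0.16 was -0.08 without induced trial 3 and -0.26 without induced trial 2. The log2 ratio of miR-181c-5p to miR-181d-5p, neighbours in 1 intron, was 0.46 ± 0.09 in induced and 0.69 ± 0.18 in uninduced libraries (SD, n = 3 each). Its groups did not overlap (exact p = 0.10, the smallest possible), and the trial differences were -0.29, -0.38 and -0.02. The mean difference of -0.23 was -0.13 without uninduced trial 2. miR-181a-5p over miR-181c-5p differed by 0.12 (exact p = 0.60) and over miR-181d-5p by -0.11 (exact p = 0.80). The ratio of the 2 arms of miR-181c differed by -0.02 (exact p = 0.90), with -0.06, -0.09 and 0.09 by trial. For miR-181b-1-3p over miR-181b-2-3p the difference was -0.91 (exact p = 0.20), on 2 to 9 reads of miR-181b-2-3p per library, and it was -0.44 without uninduced trial 1. The ratios with miR-181a-2-3p rest on the value added to its zeros and are not read.

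Outside the family, the microRNAs whose centred log2 CPM lay nearest to miR-181a-5p over the 6 libraries were miR-194-5p, miR-378b, miR-378a-3p, miR-101a-3p and miR-155-5p. Their root mean square differences from it were 0.05 to 0.09, against a median of 0.29 over 316 candidates of at least 10 CPM. The other members lay at 0.15 (miR-181b-5p) to 0.27 (miR-181b-1-3p). For miR-181a-1-3p the nearest were miR-30c-2-3p, miR-331-5p, miR-27b-3p, miR-378c and miR-466k, at 0.08 to 0.14. Its neighbour miR-181b-1-3p lay at 0.11 and miR-181c-3p at 0.14, both closer than miR-181a-5p, at 0.21.

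Other microRNAs of blood lineages were set beside the family. Of 18 listed names 14 were in the table and 11 were tested, 0 of which were called without the block. With the block 1 was higher and 2 were lower. For scale, the same fits marked 6.10% of the 525 tested names without it, and 10.7% up and 11.0% down with it. The 3 calls were therefore not read as a response of blood lineage microRNAs as a set. The median log2 fold change of the 11 was 0.02, beside 0.015 for the full tested set. miR-142a-5p and miR-223-3p, known with miR-181 as microRNAs of blood cells, had 0.05 (SE 0.16) and -0.23 (SE 0.39). The B and T cell microRNA miR-150-5p had 0.16 (SE 0.23), at 36.1 ± 3.54 CPM in induced and 32.2 ± 11.0 CPM in uninduced cells (SD, n = 3 each). The 3 blocked calls were miR-146a-5p, miR-155-3p and miR-125b-5p. miR-146a-5p, which dampens inflammatory signalling, was higher by 0.56 (edgeR adjusted p = 0.037 with the block). miR-155-3p and miR-125b-5p were at -0.68 and -0.85 (edgeR adjusted p = 0.0048 and 0.039 with the block). All 3 were low in level. In induced and uninduced libraries the means were 6.55 and 4.43 CPM for miR-146a-5p, and 2.26 and 4.14 CPM for miR-125b-5p. For miR-155-3p they were 6.18 and 10.0 CPM, and its groups overlapped. The more abundant arm miR-155-5p, at 677 and 777 CPM, was not called (edgeR adjusted p = 0.0948 with the block).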

How the data were processed

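Small RNA libraries, 3 of induced and 3 of uninduced cells, were made with a TruSeq kit and read on a HiSeq, per the labels' protocols. Reads were aligned to miRBase, per the series' design text, and Trim Galore 0.4.0, DESeq2 (listed as 2.1.8.0) and mm10 appear in the submitters' processing notes. The read counter and the handling of reads with repeated matches were not given in the sources used here. The authors deposited raw counts for 2061 entries and the same values in CPM, which equal the counts per column total within 0.005. For each of 1915 names, the entry of highest total was used, which left out 17.5% of the counts summed over all entries. The part of these counts that repeats reads of the kept entry was not tested. miR-181a-5p and miR-181b-5p had 2 entries each, within 0.016% and 1.20% of each other. edgeR 4.0.16 in R 4.3.3 (TMM, filterByExpr, robust glmQLFit, glmQLFTest) was run over the whole table and checked on simulated data. The changes simulated were larger than those of the members, and no trial effect was simulated. SE is the log2 fold change over the root of F. Ratios within a library had 0.5 reads added and were tested exactly with SciPy 1.17.1, unpaired and, as an addition after the data were seen, paired by trial. After group means were removed, libraries of the same trial correlated by 0.33, 0.45 and 0.53 across microRNAs. Libraries of different trials correlated by -0.45 to 0.04. The trials were therefore taken as pairs, although removing the means of 3 libraries makes these values depend on each other. Alternatives were other scalings, DESeq2 1.42.0, limma 3.58.1 (voom), no filter, other entries, the trial block and libraries left out. The members and lists were chosen with earlier results of these data known. All members are named, with the 5 microRNAs nearest to miR-181a-5p and to miR-181a-1-3p. Sequences and positions are from RefSeq, GRCm38.p6.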

Additional observations from a re-analysis of the deposited data

How the results depend on the processing

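All 119 alternative values of the 7 tested members stayed below 0, between -0.67 and -0.04 on the log2 scale. Of the 91 without the trial block 0 passed, the lowest adjusted p being 0.0568 (miR-181a-1-3p, DESeq2). With the replicate block, miR-181a-1-3p (-0.42) and also miR-181a-5p (-0.30) passed, and so they did with the block and without trial 2 (-0.46 and -0.41), but not without trial 1 (-0.34 and -0.26) or trial 3 (-0.50 and -0.25). The block ended or made no other call among the members. Over the whole table the block gave 56 higher and 58 lower calls, against 18 and 14 without it. With the block and without trials 1, 2 and 3 there were 37, 27 and 5 higher and 29, 33 and 7 lower, and with 1 library left out and no block from 8 to 20 higher and from 4 to 21 lower. Lower calls numbered 8 with library totals only, 9 with limma-voom and 24 with no filter. The summed 5p dose, at -0.26, ranged from -0.38 to -0.20 when 1 library was left out, and the summed 3p arms of chromosome 1 from -0.48 to -0.30. With 1 library left out, 6 ratio differences changed sign: miR-181a-1-3p over miR-181a-2-3p (-0.17 to 1.04) and over miR-181c-3p (-0.123 to 0.0828), miR-181a-2-3p over miR-181c-3p (-1.01 to 0.17), miR-181a-5p over miR-181c-5p (-0.0064 to 0.304) and over miR-181d-5p (-0.187 to 0.0483), and miR-181c-5p over miR-181c-3p (-0.12 to 0.12). The other 3, miR-181a-5p over miR-181b-5p (-0.26 to -0.08), miR-181c-5p over miR-181d-5p (-0.31 to -0.13) and miR-181b-1-3p over miR-181b-2-3p (-1.26 to -0.44), kept their sign but moved by more than 1.5 times. None of the 9 had passed a test, and the cause was not tested. Ratios with miR-181a-2-3p gave no value without an added read.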

Other observations

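The 2 entries of miR-181b-5p differed in a way that the value kept per name does not show, seen after the values were known. The earlier entry is listed ahead of miR-181b-1-3p and the later one between miR-181b-1-3p and miR-181b-2-3p. The later entry held 241, 252 and 307 reads more than the earlier one in induced libraries of trials 1, 2 and 3. In uninduced libraries it held 363, 649 and 457 more. The excess was 0.40% ± 0.054 of the miR-181b-5p reads in induced and 0.80% ± 0.34 in uninduced libraries (SD, n = 3 each). The groups did not overlap (exact two-sided permutation p = 0.10, the smallest that 3 against 3 libraries can give). The 3p arm of miR-181b-2 had 2 to 9 reads per library. The 2 hairpins of miR-181b differ right after the mature 5p arm, where miR-181b-2 goes on with UGA and miR-181b-1 with GAA. They also differ right before it, with CUC in miR-181b-2 and AUC in miR-181b-1. Whether each entry stands for the hairpin of the 3p arm listed after it, and whether these bases bear on the excess, was not tested. Both mature arms are shown in capitals.
Mir181b-1: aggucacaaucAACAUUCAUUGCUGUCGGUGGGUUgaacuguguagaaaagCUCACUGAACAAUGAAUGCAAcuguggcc
Mir181b-2: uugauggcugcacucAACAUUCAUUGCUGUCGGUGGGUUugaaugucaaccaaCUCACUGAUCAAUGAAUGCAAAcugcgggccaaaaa
For miR-181a-5p the earlier entry, listed ahead of miR-181a-1-3p, was the higher one. It held 24 to 43 reads more in induced and 27 to 45 in uninduced libraries.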
